A study of Mus musculus with 8 samples.

Results

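The nuclear genes of oxidative phosphorylation were followed in pharyngeal mesoderm and hearts of single mouse embryos that lacked Isl1, the LIM-homeodomain factor of the second heart field. Genes were taken by symbol from a table of 20701 gene symbols, using the prefixes of the subunit families (Nduf with the letters a, b, c, s or v, Sdha to Sdhd, Uqcr, Cox4 to Cox8 and Atp5). The rule gave 84 genes, of which 37 carried complex I symbols, 4 complex II, 8 complex III, 18 complex IV and 17 complex V. The rule used no measured value to choose a gene, but where a symbol had several transcript entries (19 members, with at most 6 entries each) the entry with the most reads was kept.

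RNA-seq had been done on 8 embryos of the C57BL/6 strain at E8.75 (6 somites), 4 of genotype Isl1-/- (knockout) and 4 wild-type, with 1 library per embryo and no treatment. Each library held between 18916449 and 26153048 counted reads. The molecule was given as total RNA for knockout embryo 2 and as polyA RNA for the other 7. Levels are given as CPM, the count per 1000000 reads after TMM scaling between libraries, and 4 values in a row stand for embryos 1 to 4 of a genotype. Isl1 itself measured 9.72, 9.76, 26.9 and 23.3 CPM in wild-type and 2.32, 2.16, 1.78 and 2.40 CPM in knockout tissue. Isl1 was lower in every knockout embryo (log2 fold change -3.00, SE 0.36, adjusted p = 0.0041, edgeR's quasi-likelihood test with Benjamini-Hochberg adjustment over all genes), in the direction of its genotype. The dissected tissue holds several cell types, so fewer cells of a type and less RNA per cell cannot be told apart in any value given here.

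Oxidative phosphorylation takes place in the inner mitochondrial membrane. Complex I (NADH dehydrogenase) and complex II (succinate dehydrogenase) pass electrons to ubiquinone, complex III (cytochrome bc1) hands them to cytochrome c, complex IV (cytochrome c oxidase) delivers them to oxygen, and complex V (ATP synthase) uses the resulting proton gradient to make ATP. Most subunits come from nuclear genes that nearly every cell expresses, while several small subunits of complex IV have a second gene with restricted expression: Cox6a2, Cox7a1 and Cox8b in heart and skeletal muscle, Cox6b2, Cox7b2 and Cox8c in testis, and Cox4i2 in lung and in oxygen-sensing cells. In the developing heart, mitochondria mature and the muscle isoforms become prominent as the heart grows.

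Promoters of 3 genes named below are shown first, as the 250 bases before the annotated start in RefSeq's GRCm38.p6 annotation. They are Cox6b2, the member that passed the test, its common partner Cox6b1, and Atp5g3, one of the genes for the c ring of ATP synthase. The knockout embryos lay wholly below the wild-type embryos in Atp5g3, as in 4 of the 80 tested members and 6.33% of all genes tested. Atp5g3 did not pass the test (adjusted p = 0.182, edgeR's quasi-likelihood test). Cox6b1 lay at chr7:30626115-30626364 and Cox6b2 at chr7:4753095-4753344, both on the minus strand, and Atp5g3 at chr2:73911327-73911576 on the minus strand. Capitals mark matches to the motifs given after the sequences.
Cox6b1: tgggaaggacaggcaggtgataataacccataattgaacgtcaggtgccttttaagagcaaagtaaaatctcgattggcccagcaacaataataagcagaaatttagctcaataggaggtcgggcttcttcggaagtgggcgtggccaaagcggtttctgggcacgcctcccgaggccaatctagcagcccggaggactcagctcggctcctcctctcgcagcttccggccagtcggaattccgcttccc
Cox6b2: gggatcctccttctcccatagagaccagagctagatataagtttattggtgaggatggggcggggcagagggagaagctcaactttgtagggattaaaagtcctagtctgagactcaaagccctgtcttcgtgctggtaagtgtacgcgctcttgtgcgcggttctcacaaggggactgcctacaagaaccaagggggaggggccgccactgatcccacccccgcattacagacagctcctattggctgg
Atp5g3: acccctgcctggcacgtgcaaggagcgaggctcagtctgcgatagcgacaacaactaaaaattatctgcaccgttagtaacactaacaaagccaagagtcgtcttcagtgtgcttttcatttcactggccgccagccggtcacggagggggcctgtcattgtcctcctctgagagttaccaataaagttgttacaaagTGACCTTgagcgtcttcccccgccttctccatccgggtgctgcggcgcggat

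The Cox6b2 stretch held 8 CpG dinucleotides, against 14 in that of Cox6b1 and 15 in that of Atp5g3. Windows of 300 bases (250 before to 50 after the start) were searched on both strands for the letters of the NRF1 core (CGCANGCG), an ETS site (CCGGAAGT), a YY1 site (AAGATGGC), the half-site of estrogen-related receptors (ERR, AAGGTCA) and a MEF2 site (TAAAAATA), and no 2 of these motifs overlapped in a member's window. A window was found by symbol for 66 of the 84 members, and Cox6a2, Cox4i2 and Ndufa4l2 had no entry. NRF1 letters, of the factor best known for respiratory chain promoters, stood in the windows of 25 of the 66 members (37.9%), against 18.4% of the tested genes with a window and 9.22% of all genes with one. YY1 letters stood in 13.6% of the members against 4.93% of the tested genes, ERR letters in 12.1% against 3.87%, ETS letters in 7.58% against 8.29% and MEF2 letters in 0 members against 163 of 10861 tested genes. Atp5g3 held both the ERR match shown above and an NRF1 match, which lies beyond the printed stretch. Neither Cox6b promoter held any of the 5. The tested members with NRF1 letters had a median log2 fold change of -0.17 (n = 24) and those without had -0.17 (n = 39). With ERR letters the median was -0.24 (n = 7) and without them -0.16 (n = 56), a difference that was not tested. Transcript lengths of these 7 were 286 (Atp5k), 409 (Atp5e), 449 (Ndufb2 and Ndufb4), 504 (Ndufs5), 717 (Atp5g3) and 1279 bases (Sdhd). These matches describe the letters in a window and were not measured as binding.

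Of the 84 genes, 80 passed the filter on low counts and were tested. The comparison asked whether loss of Isl1 altered the messages of the respiratory chain and ATP synthase. A single member, Cox6b2, passed the adjusted p of 0.05, and it rose in the knockout. Over all 14075 genes tested, 137 passed (0.973%), of which 15 rose (0.107%), so 1 of 80 is close to the background. At an unadjusted p of 0.05, 13 members were lower and 3 higher (Ndufa4l2, Cox4i2 and Cox6b2), 16 of 80 against 17.4% of all genes, and for the lower direction 13 of 80 against 10.1%. The count of 13 depended on single embryos and on the fit. It was 3 without knockout embryo 4, 5 without knockout embryo 1 or without wild-type embryo 1, 2 or 4, and 6 without knockout embryo 2, but 26 without knockout embryo 3 and 42 without wild-type embryo 3. With all embryos it was 5 with the Y-linked level as a covariate, 7 in the blocked fit, 6 with scaling to library totals alone and 7 with limma. It was 11 without a filter on low counts, 13 with the longest transcript per symbol, 15 with RLE in place of TMM scaling and 17 with DESeq2. The 4 knockout embryos lay wholly below the 4 wild-type embryos in 4 members (Cox5a, Cox7a1, Atp5g1 and Atp5g3, against 6.33% of all genes) and wholly above in 2 (Cox6b2 and Ndufa4l2, against 3.96%).

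Most subunit messages were slightly lower in the knockout embryos, and few differed beyond the spread between embryos. A negative fitted log2 fold change was found in 71 of the 80 members (88.8%), against 48.8% of all genes tested. In genes that are not subunits this share fell with transcript length. It was 71.2% up to 600 bases, 62.2% up to 1200, 51.6% up to 2400 and 45.1% in longer ones. The median over the members was -0.17, with the quartiles at -0.22 and -0.09, while the median of all genes was 0.01. In linear terms the median member stood at 89.1% of its wild-type mean. Summed over the 84 genes, wild-type libraries held 9057, 9367, 7515 and 8565 CPM, and knockout libraries 7436, 7938, 8672 and 7284 CPM. The ranges overlapped, since wild-type embryo 3 lay below knockout embryos 2 and 3.

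**Figure D1:**
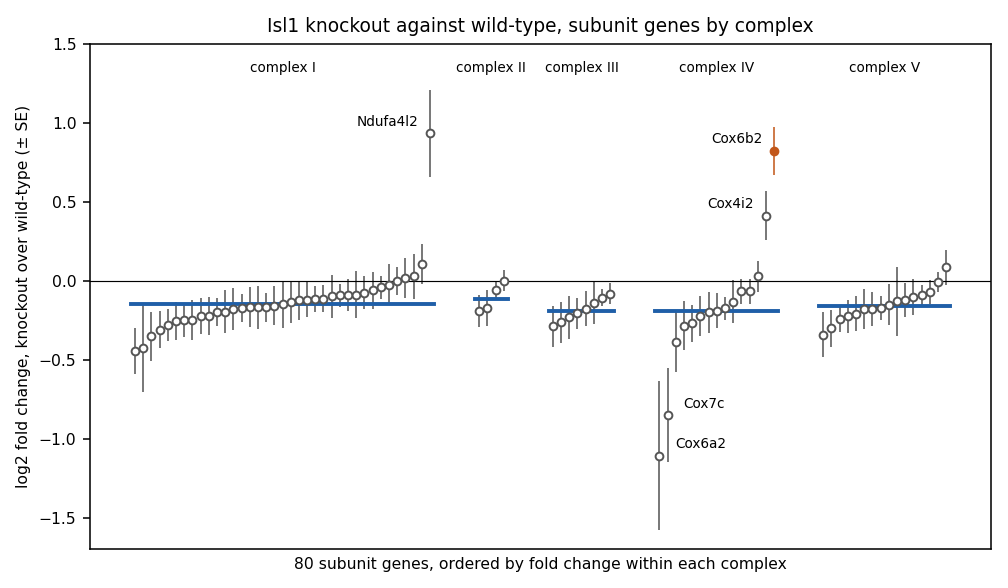
Log2 fold change (knockout over wild-type, vertical axis, bars ± SE from edgeR) of the 80 tested subunit genes, ordered within complexes I to V along the horizontal axis; blue lines are the medians of each complex and the filled point is the gene past the adjusted p of 0.05. The medians lie between -0.12 and -0.19, and Ndufa4l2, Cox6b2 and Cox4i2 stand above the other members of their groups.

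Complex I was represented by 37 genes, counted by symbol with Ndufa4 and Ndufa4l2 included, and all were tested. Of these, 33 had a negative fold change (median -0.15, no gene past the adjusted p). The lowest was Ndufs5, an accessory subunit. Ndufs5 measured 9.89, 9.45, 7.29 and 8.40 CPM in wild-type tissue, against 5.72, 7.30, 7.01 and 5.73 CPM in the knockouts. Wild-type embryo 3 and knockout embryo 2 met at nearly the same value, so the groups touched (log2 fold change -0.44, SE 0.14, adjusted p = 0.171). Ndufa4 was the most abundant by RPKM (reads scaled to transcript length and library size), at a mean of 159 RPKM. Its protein, although named for complex I, is a component of cytochrome c oxidase. Ndufa4 was at 146.6, 154.9, 100.5 and 138.5 CPM in the wild-type and at 117.5, 121.9, 150.8 and 114.5 CPM in the knockout embryos. Its groups overlapped widely, with wild-type embryo 3 the lowest of all 8 (log2 fold change -0.10, SE 0.14, adjusted p = 0.748).

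Ndufa4l2, the paralogue of Ndufa4 known as a gene induced by low oxygen, lies at chr10:126951995-126954208 (mm9, plus strand) and was the highest of the complex I symbols. Wild-type values were 5.22, 4.21, 6.32 and 2.36 CPM, and knockout values 9.28, 6.67, 7.79 and 10.8 CPM. All knockout embryos were above all wild-type embryos, by a narrow margin between wild-type embryo 3 and knockout embryo 2. The mean was 191% of wild-type (log2 fold change 0.93, SE 0.28), and the adjusted p of edgeR's quasi-likelihood test was 0.137. Under DESeq2's Wald test the fold change was 0.94 (log2, adjusted p = 0.0241), and Ndufa4l2 was one of the 2 members it called, the other being Cox6b2 (background 4.97% of genes). Ndufa4l2 shares 14 of its 960 annotated exon bases with Shmt2 on the opposite strand, and reads of both strands were counted together.

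Complex II comprised Sdha, Sdhb, Sdhc and Sdhd, the 4 subunits of succinate dehydrogenase, which also belongs to the citrate cycle. Its median log2 fold change was -0.12, nearest to 0 of the complexes. Sdhb, the iron-sulfur subunit, was the lowest, at 98.6, 106.9, 77.8 and 93.1 CPM in the wild-type and 79.5, 81.3, 91.9 and 77.1 CPM in the knockout embryos (log2 fold change -0.19, SE 0.10, adjusted p = 0.353). Sdhd, a membrane anchor and the most abundant of them by RPKM (86.4), stood at 88.8% of its wild-type mean (adjusted p = 0.462). Sdhc, the other membrane anchor, was at 86.8, 83.9, 94.7 and 91.5 CPM in wild-type and 87.3, 90.4, 96.5 and 83.0 CPM in knockout embryos. The group means of Sdhc were nearly equal, 89.2 ± 4.83 and 89.3 ± 5.70 CPM (SD, n = 4 each), with an SE of 0.07 on the log2 scale.

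All 8 complex III genes had a negative fold change, none past the adjusted p (median -0.19). Uqcr10, a small subunit, was the lowest, at 69.9, 81.4, 55.3 and 66.0 CPM in the wild-type and 51.0, 58.0, 66.1 and 48.2 CPM in the knockout embryos (log2 fold change -0.29, SE 0.13, adjusted p = 0.294). Uqcrc1, a core protein, was nearest to no change (log2 fold change -0.08, SE 0.07). Uqcrh, the hinge protein and the most abundant by RPKM (128.4), was at 133.0, 142.5, 95.4 and 120.4 CPM in wild-type embryos. In the knockouts it was at 101.8, 104.0, 137.9 and 103.2 CPM. All 4 knockouts lay inside the wild-type range, with wild-type embryo 3 below every knockout and knockout embryo 3 near the highest wild-type embryos (log2 fold change -0.14, SE 0.14, adjusted p = 0.642).

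Complex IV held both the gene that rose and the widest spread of changes. Of 18 genes, 15 were tested, 12 had a negative fold change, and the median was -0.19. The most abundant by RPKM was Cox4i1 (177 RPKM), the common form of the regulatory subunit 4. Cox4i1 was at 225.7 ± 18.7 CPM in wild-type and 215.8 ± 17.0 CPM in knockout embryos (SD, n = 4 each; adjusted p = 0.708). The 3 complex IV genes below the filter were restricted isoforms with almost no reads. Cox8b, the muscle form of subunit 8, had 1 read in wild-type embryo 1 and 2 in wild-type embryo 4, Cox7b2 had 1 and 2 in wild-type embryos 1 and 2, and both had 0 in every knockout embryo. Cox8c had 0 reads in all 8. Counts of 3 or fewer in a group allow no fold change to be given.

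Cox6b2, known as the testis form of subunit 6b, which lies on the intermembrane-space side of the complex, was at chr7:4703396-4704696 (mm9, minus strand). Wild-type libraries held 44, 47, 46 and 58 of its reads, and knockout libraries 91, 83, 64 and 81. Scaled to CPM, wild-type values were 1.84, 2.08, 1.94 and 2.21, against 3.52, 3.44, 3.35 and 3.97 for the knockouts. The groups were well apart and each was tight, with wild-type embryo 3 inside the wild-type range. The mean rose from 2.02 ± 0.16 to 3.57 ± 0.27 CPM (SD, n = 4 each), 177% of wild-type (log2 fold change 0.82, SE 0.15, adjusted p = 0.0412). This call lay near the threshold. The adjusted p reached 0.161 when 1 embryo was left out and was 0.130 with the replicate number as a block and 0.152 with the Y-linked level as a covariate, while the log2 fold change kept between 0.64 and 0.88 in the 16 alternatives. Its common partner Cox6b1 was far more abundant (167 against 2.88 RPKM) and went from 151.1 ± 25.5 to 131.6 ± 15.9 CPM (SD, n = 4 each; adjusted p = 0.451).

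Cox6a2, the heart and skeletal muscle form of subunit 6a, at chr7:135348950-135349880 (mm9, minus strand), had the lowest fold change of all members. Its reads numbered 58, 45, 9 and 68 in wild-type and 26, 19, 14 and 18 in knockout libraries. In CPM these were 2.42, 1.995, 0.379 and 2.59 against 1.01, 0.788, 0.732 and 0.881. Wild-type embryos 1, 2 and 4 were well above every knockout embryo, and wild-type embryo 3 was lower than all of them. With all embryos the mean was 46.1% of wild-type (log2 fold change -1.11, SE 0.47, adjusted p = 0.263). Without wild-type embryo 3, the embryo whose value ran against the others, the log2 fold change was -1.44 and the adjusted p 0.0128. Leaving out any other single embryo gave log2 fold changes of -1.20 to -0.90 with adjusted p of 0.348 to 0.512. The annotation puts 66 of the 658 exon bases of Cox6a2 on the opposite strand of Itgad, whose reads could not be told apart there. The common form Cox6a1 was at 83.3 ± 8.15 CPM in wild-type and 79.5 ± 4.91 CPM in knockout embryos (SD, n = 4 each).

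Cox7a1, the muscle form of subunit 7a, at chr7:30969190-30971047 (mm9, plus strand), gave wild-type values of 2.003, 2.04, 1.94 and 2.43 CPM. Its knockout values were 1.82, 1.37, 1.83 and 1.42 CPM, on 29 to 64 reads per library. The groups did not overlap, yet the gap was small beside the counting error of so few reads (log2 fold change -0.39, SE 0.19, adjusted p = 0.329). The common form Cox7a2 was at 115.9, 124.7, 84.8 and 107.5 CPM in the wild-type and 84.4, 92.5, 101.6 and 81.2 CPM in the knockout embryos (log2 fold change -0.27, SE 0.12, adjusted p = 0.279).

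Cox4i2, the lung-enriched form of subunit 4, at chr2:152579909-152590773 (mm9, plus strand), measured 4.42, 5.32, 3.96 and 3.95 CPM with Isl1 and 6.50, 5.64, 4.92 and 6.41 CPM without it. Knockout embryo 3 lay inside the wild-type range and the other 3 knockouts above it (log2 fold change 0.41, SE 0.16, adjusted p = 0.220). Cox8a, the common form of subunit 8, was at 106.7, 110.4, 74.6 and 104.0 CPM in the wild-type and at 84.6, 87.4, 91.7 and 83.6 CPM in the knockout embryos. The knockouts of Cox8a were tightly grouped and lay between wild-type embryo 3 and the other wild-type embryos (log2 fold change -0.19, adjusted p = 0.418). Cox7b, a subunit gene on the X chromosome, was at 91.3% of its wild-type mean (adjusted p = 0.655). The other X-linked members, Ndufa1 at 78.4% and Ndufb11 at 88.4%, did not pass either (adjusted p = 0.278 and 0.524). Sex was not balanced between the genotypes. The summed level of 4 Y-linked genes was 280 CPM in wild-type embryo 4 and 276 to 300 CPM in knockout embryos 1, 3 and 4, and at most 0.083 CPM in the other 4 embryos, so 1 of 4 wild-type and 3 of 4 knockout embryos carried Y-linked RNA.

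**Figure D2:**
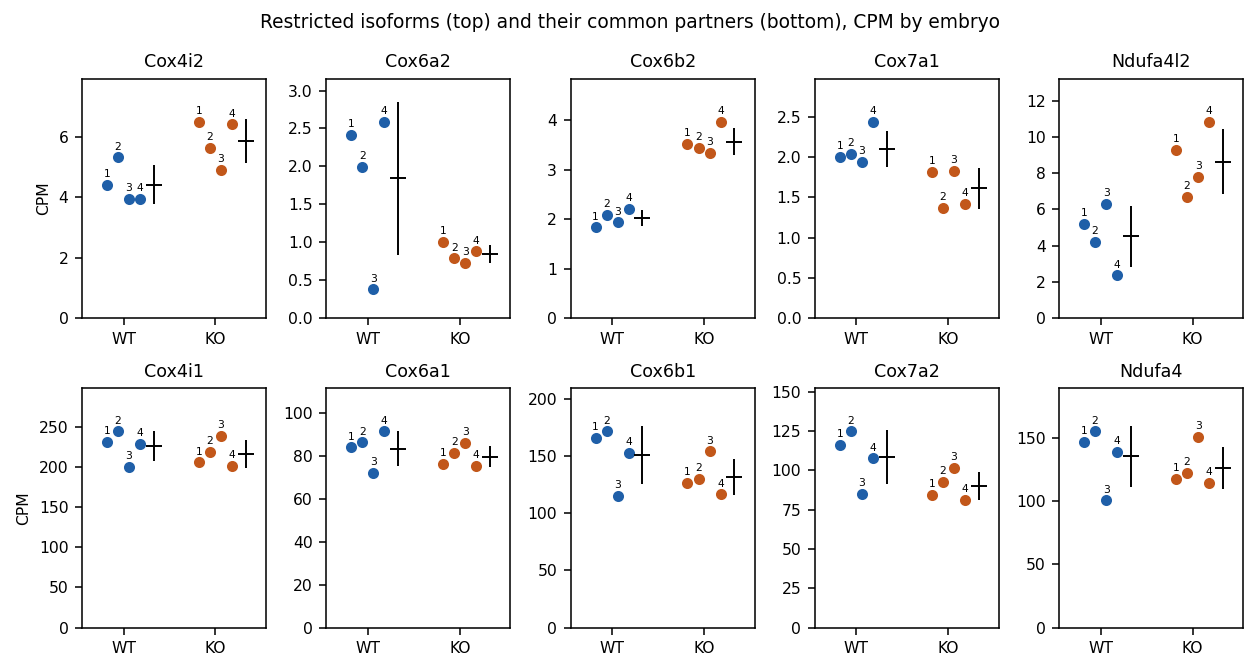
CPM (vertical axes, from 0) of 5 restricted isoforms (top) and their common partners (bottom) in the 4 wild-type (WT, blue) and 4 knockout (KO, orange) embryos; small numbers are the embryo numbers and the black marks the mean ± SD. Cox6b2 and Ndufa4l2 are higher in every knockout embryo, and Cox6a2 is low in wild-type embryo 3 (0.379 CPM) against 1.995 to 2.59 CPM in the other wild-type embryos.

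Complex V comprised 17 symbols, of which 16 were tested, 15 with a negative fold change (median -0.16). The 5 subunits of the catalytic F1 head (Atp5a1, Atp5b, Atp5c1, Atp5d and Atp5e) had a median of -0.10 and the other 11 tested symbols a median of -0.18. Atp5b, the catalytic beta subunit, was the most abundant member of all (449 RPKM). It was at 1589, 1588, 1357 and 1472 CPM in the wild-type and 1261, 1364, 1451 and 1250 CPM in the knockout embryos. Wild-type embryo 3 lay inside the knockout range and the other 3 wild-type embryos above it (log2 fold change -0.17, SE 0.08, adjusted p = 0.281). Atp5k, a small subunit of the membrane part and the lowest of the complex, was at 43.6, 40.5, 35.8 and 39.0 CPM against 30.2, 32.5, 39.3 and 23.3 CPM (log2 fold change -0.34, SE 0.14, adjusted p = 0.253). Atp5s, which matched the rule and is not a structural subunit of the enzyme, was the highest (log2 fold change 0.08, adjusted p = 0.733).

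The c ring of ATP synthase, the part that turns as protons pass, has the same mature protein from 3 genes. Atp5g3 dominated (127 RPKM against 7.75 for Atp5g1 and 1.38 for Atp5g2). Atp5g3 was at 178.0, 165.4, 158.3 and 168.0 CPM in the wild-type and at 131.6, 156.2, 153.8 and 124.4 CPM in the knockout embryos, with no overlap (log2 fold change -0.24, SE 0.08, adjusted p = 0.182). Atp5g1 was at 10.7, 12.0, 10.03 and 13.0 CPM against 10.01, 9.24, 9.20 and 8.66 CPM. The lowest wild-type and the highest knockout embryo of Atp5g1 nearly coincided (log2 fold change -0.30, SE 0.12, adjusted p = 0.227). Atp5g2 had only 24 to 42 reads per embryo and overlapping groups (log2 fold change -0.13, SE 0.22).

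Of 9 pairs of paralogues, 7 had both genes above the filter, and their ratio was compared within each library, where the scaling between libraries plays no role. In the exact two-sided permutation test over 8 embryos the smallest possible p is 0.0286. A pair that alone reached that p could not fall below 0.05 after Benjamini-Hochberg adjustment over the 7 pairs. None was below 0.05, and the adjusted values therefore cannot decide about a single pair. The share of Cox6b2 in the summed RPKM of Cox6b1 and Cox6b2 ran 0.948, 1.04, 1.44 and 1.23% for the wild-type and 2.35, 2.24, 1.84 and 2.86% for the knockout libraries. This was the only tested pair whose groups did not overlap, with a log2 ratio higher by 1.01 (SE 0.19, exact p = 0.0286, the smallest possible, adjusted 0.200). Ndufa4l2 made up 1.77 ± 0.96% of its pair in wild-type and 3.43 ± 0.96% in knockout embryos (SD, n = 4 each), and its log2 ratio was higher by 1.08 (SE 0.44, exact p = 0.0857, adjusted 0.200). Cox4i2 made up 1.96 ± 0.18% and 2.73 ± 0.52% (log2 ratio higher by 0.47, SE 0.16, exact p = 0.0571, adjusted 0.200).

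Cox6a2 made up 2.28, 1.84, 0.424 and 2.24% of its pair in wild-type embryos and 1.05, 0.778, 0.684 and 0.938% in the knockouts. Wild-type embryo 3 again lay below the knockouts, the other 3 above (log2 ratio -0.73, SE 0.59, exact p = 0.257, adjusted 0.450). The share of Cox7a1 was 3.94 ± 0.66% and 3.59 ± 0.53% (SD, n = 4 each), and a difference in ratio was not detectable (log2 ratio -0.13, SE 0.17, exact p = 0.486). Atp5g1 against Atp5g2 and against Atp5g3 had overlapping groups (log2 ratio -0.15, SE 0.22, and -0.05, SE 0.12).

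The members moved together from embryo to embryo. Each gene's log2 CPM was taken relative to its mean over the 8 embryos, and the median of these deviations over the 80 members was 0.16, 0.23, -0.17 and 0.09 in wild-type embryos 1 to 4. In knockout embryos 1 to 4 it was -0.16, -0.07, 0.09 and -0.18. Wild-type embryo 3 was the lowest wild-type embryo in 69 of the 80 members, and knockout embryo 3 was the highest knockout in 64. The complexes differed most in wild-type embryo 3, where the median deviation was -0.19 for complex I, -0.08 for complex II, -0.17 for complex III, -0.28 for complex IV and -0.07 for complex V. This embryo was the lowest of all 8 in complexes I and IV. It lay above knockout embryos 1 and 4 in complexes II, III and V, in complex III only just above embryo 4. Without wild-type embryo 3, whose low values narrow the difference, the median log2 fold change of the members was -0.24, 42 of 80 were lower at an unadjusted p of 0.05 (13.9% of all genes), and 3 passed the adjusted p (Cox6b2 higher, Cox6a2 and Cox8a lower, against 3.46% of all genes). In that fit Cox8a had a log2 fold change of -0.30 (adjusted p = 0.0272, edgeR's quasi-likelihood test). Since this embryo was the lowest wild-type in 69 members, leaving it out raised their wild-type mean by construction. The 3 of 80 past the adjusted p are close to the share of all genes. Without any other single embryo 0 members passed, and the median was -0.22 to -0.10.

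**Figure D3:**
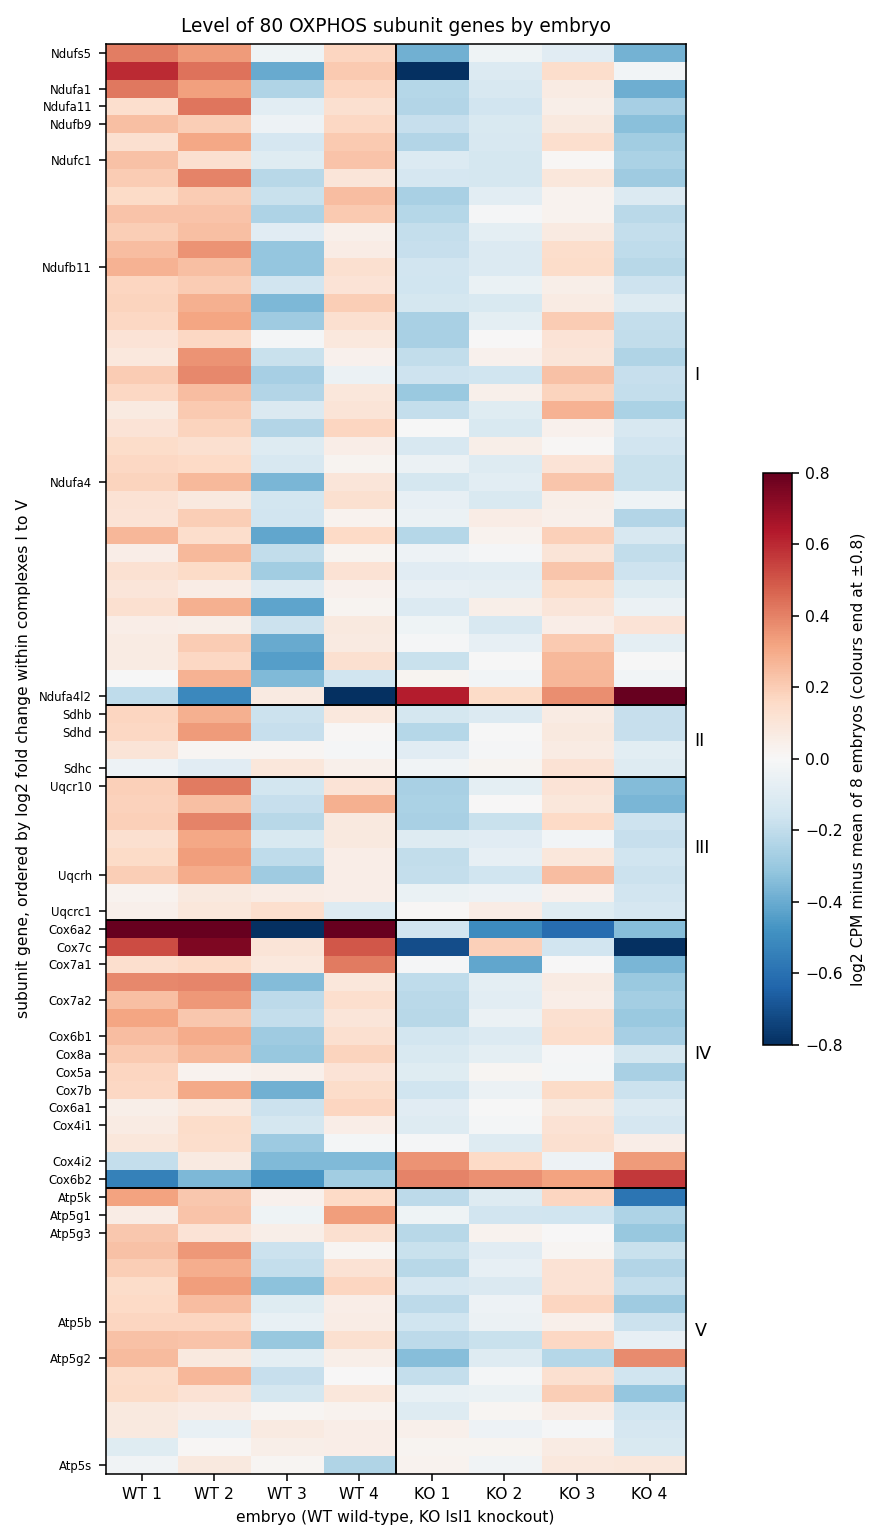
Log2 CPM of the 80 tested subunit genes (rows, ordered by fold change within complexes I to V) in each embryo (columns), relative to the gene's mean over the 8 embryos; red is above and blue below that mean, colours end at ±0.8, and the rows of genes named by rule or with an unadjusted p under 0.05 are labelled. The columns of wild-type embryos 1 and 2 are mostly red and that of wild-type embryo 3 mostly blue, while Cox6b2 and Ndufa4l2 run against the other rows.

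Other short and housekeeping messages showed similar medians by embryo. The 78 genes of mitochondrial ribosomal proteins had a median log2 fold change of -0.17, with 73 negative and none past the adjusted p. Of 94 tested cytosolic ribosomal protein genes, 85 were negative (median -0.16, none past). Their median deviations in wild-type embryos 1 to 4 were 0.23, 0.27, -0.23 and 0.08, and in knockout embryos 1 to 4 -0.12, -0.14, 0.12 and -0.16, which is the pattern of the subunits. Transcript length moved with this too, in length classes from which the ribosomal protein genes were not removed. Among genes that are not subunits, the median log2 fold change was -0.14 for the 156 tested with transcripts of up to 600 bases, -0.06 for the 1087 of up to 1200, -0.01 for the 3919 of up to 2400 and 0.02 for the 8833 longer ones. Subunit genes in the same classes had medians of -0.19 (n = 30), -0.17 (n = 29), -0.11 (n = 17) and -0.14 (n = 4). The part of transcript length in the lower subunit values was not tested.

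**Figure D4:**
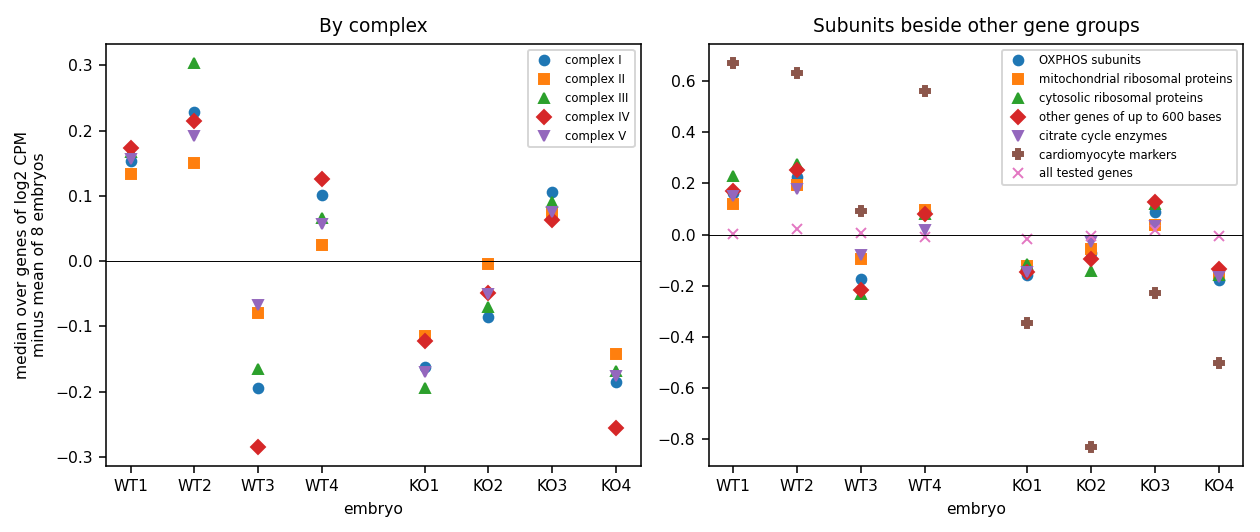
Median over genes of log2 CPM relative to each gene's mean over the 8 embryos (vertical axis) in each embryo (horizontal axis), for complexes I to V (left) and for the subunits beside other gene groups (right). Complexes I to V spread most in wild-type embryo 3, from -0.28 to -0.07, ribosomal protein genes and short transcripts lie near the subunits, and cardiomyocyte markers span a wider range, from 0.67 in wild-type embryo 1 to -0.83 in knockout embryo 2.

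Genes that work with the complexes were counted from lists, beside a background of 0.973% of all genes past the adjusted p in either direction. Of the 15 tested assembly factors of complex I, 12 had a negative fold change (median -0.06) and Ndufaf4, a membrane-associated assembly factor, fell. Ndufaf4 was at 84.9, 92.1, 85.5 and 87.7 CPM in wild-type and 66.6, 73.8, 62.9 and 65.3 CPM in knockout embryos, with every knockout below every wild-type embryo, wild-type embryo 3 included (log2 fold change -0.38, SE 0.07, adjusted p = 0.0268). None passed among the 4 assembly factors of complex II (median -0.10), the 6 of complex III (-0.05), the 21 of complex IV (-0.09) and the 3 of complex V (-0.01). The 17 citrate cycle enzymes had a median of -0.16, with 16 negative and none past the adjusted p. Among 7 tested genes of ATP and phosphocreatine export all were negative (median -0.23, none past), and among 6 related respiratory genes outside the symbol rule 5 were (median -0.20, none past). Of 13 genes of mitochondrial transcription and biogenesis, 10 were negative (median -0.10) and Esrrg fell. Esrrg, an estrogen-related receptor that drives oxidative metabolism genes in heart, was at 17.8 ± 1.94 CPM in wild-type and 7.23 ± 0.92 CPM in knockout embryos (SD, n = 4 each; log2 fold change -1.30, adjusted p = 0.0021).

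Cardiomyocyte marker RNA was lower in the knockout embryos, which does not separate fewer such cells from less RNA per cell. All 18 cardiomyocyte markers were detected and all had a negative fold change (median log2 fold change -0.98). Of these, 14 fell past the adjusted p, against 0.973% of all genes past it in either direction. Their summed level was 3936 to 5761 CPM in wild-type and 2266 to 3211 CPM in knockout embryos, lowest in wild-type embryo 3 among the wild-type. Among the knockouts, embryo 3 had the highest subunit median (0.09) and the highest marker median (-0.23), embryo 4 had the lowest subunit median (-0.18) with a marker median of -0.50, and embryo 2 had the lowest marker median (-0.83) with a subunit median of -0.07. Knockout embryo 1 lay at -0.16 for the subunits and -0.35 for the markers, and embryo 2 is the library labelled total RNA. The 10 erythroid markers summed to 398 to 2398 CPM in wild-type and 1279 to 3169 CPM in knockout embryos, with wild-type embryo 3 the lowest, and the 13 endoderm markers to 459 to 1591 and 417 to 2318 CPM, with wild-type embryo 3 the highest of the wild-type. Median log2 fold changes were 0.49 for the erythroid markers (10 of 10 higher) and 0.15 for the endoderm markers (11 of 13 higher). Endothelial (10), neural (9), neural crest (6) and paraxial or caudal mesoderm markers (8) had medians of -0.10, 0.11, 0.15 and 0.25. No marker of these lists or of the erythroid and endoderm lists passed the adjusted p or was at 0 in all embryos. The part of tissue makeup in the subunit values was not tested.

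Some members were counted at levels that set them apart from the other subunits of their complex. Cox7c had 13 to 55 reads per embryo (log2 fold change -0.85, SE 0.30, adjusted p = 0.193), Ndufb4 32 to 81, and Atp5l 8, 11, 4 and 4 in wild-type and 2, 4, 6 and 3 in knockout embryos, below the filter. How reads shared with near-identical copies elsewhere in the genome were treated is not given in the sources used here, so the values of Cox7c, Ndufb4, Atp5l and Atp5g2 are uncertain. In the annotation, exons of 19 members overlapped those of another gene, mostly on the opposite strand, among them Cox5a with 267 of 690 bases shared. Cox5a, a subunit of the matrix side, was at 98.6, 89.1, 89.8 and 94.4 CPM in wild-type and 81.8, 88.3, 86.4 and 73.1 CPM in knockout embryos (log2 fold change -0.17, SE 0.07, adjusted p = 0.248). Cox7a2l, Atp5s and Atp5sl matched the symbol rule without being established structural subunits.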

How the data were processed

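RNA of single embryos (4 Isl1-/- and 4 wild-type) had been made into libraries from 100 ng of total RNA and sequenced on a NextSeq500. The authors aligned the reads to mm9 with STAR and counted exon reads of both strands per RefSeq transcript with HOMER, so the deposited values used here were raw, whole-number read counts. The deposited RPKM values were computed by the authors with edgeR, and the deposited length column gave transcript length in bases. The deposited fold changes and p-values of the authors' own comparison were not used. Versions of their tools are not given in the sources used here.

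Of 31507 transcript entries, 1 per symbol was kept (the most reads), giving 18916449 to 26153048 reads per library. Genes were filtered with filterByExpr and tested with edgeR 4.0.16 (TMM scaling, quasi-likelihood, genotype as the only term, Benjamini-Hochberg over all 14075 genes, threshold 0.05) in R 4.3.3. The same fit was also run on simulated counts in which genes varied independently. Isoform ratios used log2 of (count + 0.5) per base of length, with an exact permutation test (scipy 1.17.1). DESeq2 1.42.0, limma 3.58.1 on log2(RPKM + 1), other scalings, filters, transcripts, covariates and left-out embryos were the alternatives. Genes named are the members past the threshold, the highest, lowest and most abundant of each complex, isoform pairs and X-linked members. The members called at an unadjusted p, those with separate groups, the F1 subunits, Cox5a, Cox7c, Ndufb4 and Cox7a2l were named after their values were seen. The members, lists and tests were chosen with earlier results of these data known. Nothing in the labels ties embryos to litters. Positions are from the GENCODE annotation of mm9, and promoters from RefSeq (GRCm38.p6).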

Additional observations from a re-analysis of the deposited data

Results flagged for a closer look

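Among 82 groups of 4 embryos checked for a sample far from the others (the named genes in CPM, the isoform ratios and the medians by complex), 2 passed Dixon's test for a single outlier. Chance alone is expected to give about 1 in 20. Uqcrh, the hinge protein of complex III, was at 137.9 CPM in knockout embryo 3, against 101.8 to 104.0 CPM in the other knockouts. The log2 ratio of Cox6a2 to Cox6a1 was -7.80 in wild-type embryo 3, while the other 3 of that genotype gave -5.72 to -5.41.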

How the results depend on the processing

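The number of subunits past the adjusted p was 1 (Cox6b2) and rested near the threshold. It was 2 with DESeq2, which called 699 genes in all, and 0 without a filter on low counts, with the Y-linked genes as a covariate and with the replicate number as a block, where 76 genes in all passed. Leaving out 1 embryo at a time gave between 0 and 3 subunits and between 70 and 490 genes, the upper values both without wild-type embryo 3. The other counts were within 1.5 times the main value. Embryos of the same number were not taken as pairs, since the correlations of their deviations from the group means were 0.109, 0.212, 0.0863 and 0.507 and only number 1 correlated best with its own partner. The median log2 fold change of the subunits stayed negative, between -0.24 and -0.10, in all 16 alternatives, as did those of complexes I to V. None moved by more than the spread between embryos, but that limit was wide. For all subunits the SD of the embryo medians was 0.176 in wild-type and 0.121 in knockout embryos, against a median of -0.168. A shift close to the size of the median itself could thus pass as unmoved. Sdhc, at 0.00058, changed sign with the Y-linked covariate (-0.0055) and without knockout embryo 2 (-0.0009), knockout embryo 3 (-0.0386), wild-type embryo 1 (-0.0107) or wild-type embryo 2 (-0.0292), with values from -0.0386 to 0.0336 when 1 embryo was left out, and Uqcrc1 with the Y-linked covariate (0.0014). The cause was not tested. With 4 against 3 embryos an exact test of a ratio cannot go below 0.0571, and with paired differences not below 0.125, so these were read as values. Depth limited the tested members Cox6a2, Cox6b2, Cox7a1, Cox7c, Ndufb4 and Atp5g2, each with fewer than 100 reads per embryo.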
